A study of Mus musculus with 16 samples.

Results

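The genes described here were 34 genes of the NRF2, glutathione and antioxidant enzyme system, taken from a list of gene names and read in mouse brain microvascular endothelial cells (mBMEC). The list was chosen with earlier results of these data known. Shares of the 34 genes set beside shares of all genes are therefore descriptions and not tests. They were 2 genes for the transcription factor NRF2 and its sensor, 4 for glutathione synthesis and recycling, 6 for thioredoxin and peroxide enzymes, 11 glutathione transferases, 5 NADPH enzymes, 4 genes for catalase and superoxide dismutases, and the NRF2 targets Nqo1 and Osgin1. All 34 had counts and all 34 passed the filter on low counts, among 14838 genes tested and 27228 genes with any count. RNA-seq of poly(A) RNA had been performed on 16 libraries in 6 groups. They were untreated WT (3 libraries), WT with propranolol (WT+P, 2), WT with rapamycin (WT+R, 2), untreated KO (3), KO with propranolol (KO+P, 3) and KO with rapamycin (KO+R, 3). Propranolol was given at 10 µM and rapamycin at 100 nM, each for 24 h. Both genotypes came from Cdh5 (PAC)-CreERT2/PDCD10fl/fl mice of 8 to 10 weeks, so the WT cells also carried the floxed alleles and the Cre gene, which is driven by the endothelial Cdh5 promoter. KO cells had been exposed to 4-hydroxytamoxifen (4-OHT) in culture and WT cells had not, so loss of Ccm3 and exposure to 4-OHT cannot be told apart. Brains of several mice were pooled for a culture, and a library is therefore not a single animal.

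NRF2, encoded by Nfe2l2, is held in the cytoplasm by KEAP1 and sent for degradation. Oxidants and electrophiles modify cysteines of KEAP1, and NRF2 then enters the nucleus, pairs with a small MAF protein and binds antioxidant response elements before genes for glutathione synthesis, thioredoxin and peroxiredoxin recycling, NADPH supply and conjugation. Brain endothelium faces both blood and brain, and this system is known there for the defence against peroxides and foreign compounds. Much of the control of NRF2 acts on its protein, so the mRNA of Nfe2l2 is not a measure of its activity.

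The antioxidant response element is the sequence through which NRF2 acts, and its core was therefore searched in the promoters. The core searched was TGACNNNGC on both strands, in the 250 bases before the start of the most abundant transcript of each gene (GRCm39). It overlaps the AP-1 motif TGACTCA where its 3 free letters are TCA. Of the 34 promoters, 5 (14.7%) held the core, against 1588 (10.7%) of the 14838 promoters of all genes tested. The 5 are printed because they are the matches among the genes described, with the core in capitals and all written 5′ to 3′ on the strand of the gene.
Txnrd1, chr10:82694933-82694971, plus strand: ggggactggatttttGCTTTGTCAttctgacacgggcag
Prdx1, chr4:116542648-116542686, plus strand: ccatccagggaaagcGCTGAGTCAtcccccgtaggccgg
Tkt, chr14:30279433-30279471, plus strand: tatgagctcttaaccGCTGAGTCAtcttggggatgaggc
Sod1, chr16:90017298-90017336, plus strand: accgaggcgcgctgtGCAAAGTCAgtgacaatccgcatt
Gstm5, chr3:107803113-107803136, plus strand: ctgcgcaccgcccacTGACCACGC
The cores of Prdx1 and Tkt were the same 9 letters, GCTGAGTCA, and both overlapped the AP-1 motif. Among 86 other genes of the system that were tested, 7 (8.14%) held the core. Sqstm1, whose product p62 binds KEAP1, and Mafg, a small MAF partner of NRF2, are shown because these 2 of the 7 genes were called as higher with propranolol. Aox1, another of the 7, held the same core as Sqstm1, and both of these cores overlapped the AP-1 motif. Aox1 was called as lower with propranolol in the fit with the replicate number as a block. Ggt1 and Gsta3, also among the 7, were called in other contrasts. Ggt1 was higher in KO. With the block, Gsta3 was higher in KO and lower with rapamycin. Ggct and Msra, the rest of the 7, were not called with edgeR, with or without the block. Holding the core thus did not go with a single direction or contrast.
Sqstm1, chr11:50102987-50103025, minus strand: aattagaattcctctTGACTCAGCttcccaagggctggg
Mafg, chr11:120524572-120524610, minus strand: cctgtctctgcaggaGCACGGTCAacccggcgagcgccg
The letters were not in this window of Srxn1, Gclm, Gclc, Pgd or Nqo1, whose values are described below, which says only that these letters are not in this window. For Gclm the window (chr3:122048986-122049235) lay inside the gene, before a transcript with 49.6% of its TPM (abundance per transcript length). The windows of Txnrd1, Prdx1, Tkt and Sqstm1 also lay inside their genes. The transcripts used held 73.3%, 42.3% and 60.5% of the TPM of Txnrd1, Prdx1 and Tkt. Other transcript starts were not searched.

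Depth ranged from 18830503 to 26203339 counts per library. Pdcd10 (Ccm3), the gene targeted in KO cells, lay at 7.83 to 16.7 CPM (counts scaled to library size) in the 9 KO libraries and at 27.7 to 60.8 CPM in 6 of the 7 WT libraries. The library labelled WT replicate 1 lay at 11.5 CPM, within the KO range. Single-gene results that rest on it are mostly also given without it. Shares of genes by direction, overlap or unadjusted p, and medians over genes, are given only with it. All 12 endothelial markers reached 1 CPM, and their sum ranged from 9031 to 17888 CPM. The summed markers of other cell types reached at most 202 CPM in any library. Highest among them were the fibroblast gene Col1a1, at up to 113 CPM, and the neuronal gene Stmn2, at up to 89.5 CPM. For microglia and macrophages only 2 of 7 markers reached 1 CPM in any library, for astrocytes 1 of 6 (Aldh1l1) and for neurons 1 of 5 (Stmn2). Libraries with the same replicate number tended to deviate together from their group means, and they are called a replicate set here. In bulk RNA, fewer cells of a type and less RNA per cell cannot be told apart.

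Levels were compared between genes per transcript length. The highest medians over the 16 libraries, in TPM (abundance scaled for transcript length and for depth), were those of Gpx4, the phospholipid hydroperoxide reductase (1294 TPM), Sod1, the cytosolic superoxide dismutase (983 TPM), and Taldo1, transaldolase of the pentose phosphate pathway (972 TPM). Prdx1, Gpx1 and Txn1 followed at 642, 566 and 359 TPM. In all, 31 genes had a median of at least 10 TPM and 16 of at least 100 TPM. The lowest were Gstt1 at 4.11 TPM, Mgst2 at 2.19 TPM and Sod3, the extracellular superoxide dismutase, at 1.29 TPM. The exons of Gpx1 overlapped a gene on the other strand over 85.3% of their bases and those of Sod1 over 48.8%, and the libraries carried no strand, so their levels are uncertain. The Gstm genes share sequence with each other, and reads could be split between them by the estimate.

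**Figure D1:**
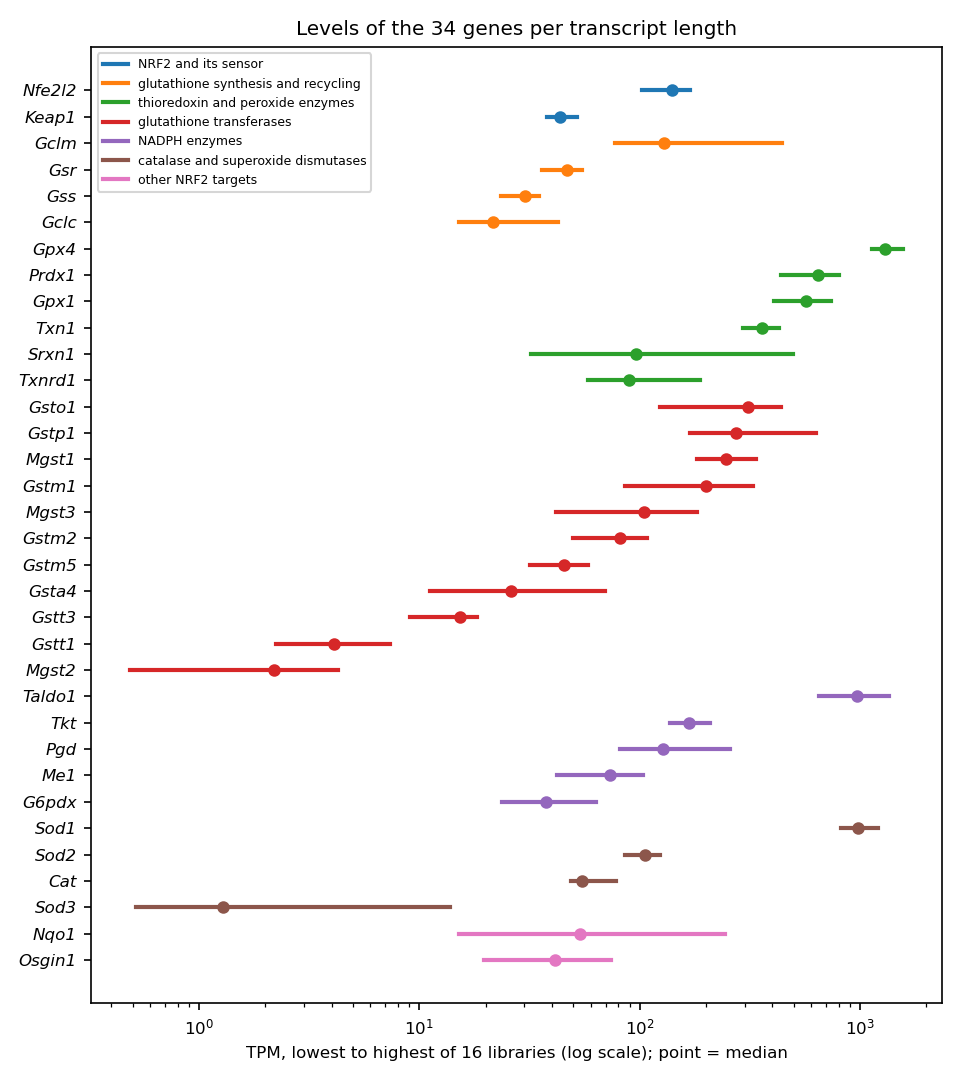
Level of each of the 34 genes in TPM on a log axis, grouped and coloured by role; lines run from the lowest to the highest of the 16 libraries and points are medians. Gpx4, Sod1 and Taldo1 have the highest medians (1294, 983 and 972 TPM), and Srxn1, Nqo1 and Sod3 have the longest lines.

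The spread over libraries separated the genes further. The highest library lay less than 2-fold above the lowest for 13 genes, among them Keap1 (1.28-fold), Sod2 and Tkt. It lay more than 5-fold above the lowest for 5 genes, Sod3 (27.0-fold), Srxn1 (16.3-fold), Nqo1 (14.6-fold), Gsta4 (6.45-fold) and Mgst2 (5.21-fold). Over the 16 libraries, the genes whose log2 CPM was most like that of Srxn1 were Pgd (r = 0.98), Gclm (r = 0.94) and Txnrd1 (r = 0.92), and those most like Nqo1 were Gsr (r = 0.89), Prdx1 (r = 0.83) and Gstp1 (r = 0.76). These values describe 16 libraries that share cultures and treatments.

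Comparisons between single groups asked what Ccm3 loss did in untreated cells and what each drug did within a genotype. A gene was called at an adjusted p under 0.05 over all genes tested and a fold change above 1.5. With edgeR's quasi-likelihood test, 0 of the 34 genes were called in any of these comparisons, and 0 with the replicate number as a block. Of all genes, 0.00674% were called for KO vs WT, 0.00674% for KO+P vs KO, 1.51% for KO+R vs KO, 0.00674% for WT+P vs WT and 1.4% for WT+R vs WT. With the block these shares were 0.182%, 0.142%, 4.98%, 0.0809% and 4.56%. Few genes of any kind thus passed for propranolol or for genotype in a single comparison. Pdcd10 itself was not called for KO vs WT with edgeR (log2 fold change -1.56, adjusted p = 0.42, and 0.119 with the block). A lack of calls there does not show that a gene was unchanged. An unadjusted p under 0.05 was reached by 4 of the 34 (11.8%) for KO vs WT, all higher in KO, against 6.07% of all genes. It was reached by 5 (14.7%) for KO+P vs KO, all higher with propranolol, against 12.6% of all genes, and by 4 (11.8%) for KO+R vs KO, against 12.5%. In WT it was reached by 3 (8.82%) with each drug, against 9.87% of all genes for WT+P vs WT and 12.6% for WT+R vs WT. Apart from KO vs WT these shares were near those of all genes. DESeq2 called 1 of the 34 for KO vs WT (Nqo1), against 0.499% of all genes with an adjusted p, 1 for KO+P vs KO (Srxn1), against 1.19%, and 1 for WT+R vs WT (Sod3), against 3.82%. It called 0 for KO+R vs KO and for WT+P vs WT, against 3.24% and 0.882% of all genes. With the block, a setting chosen after the values were seen, DESeq2 called Nqo1 and Gstp1 for KO vs WT (2.82% of all genes), Gclm, Srxn1 and Pgd for KO+P vs KO (6.77%), Taldo1 for KO+R vs KO (7.63%), Mgst3 and Sod3 for WT+R vs WT (6.66%) and 0 for WT+P vs WT (1.15%).

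The 4 largest single differences that missed the call are given as values, leaving out genes that averaged under 1 CPM. Mgst2, a microsomal transferase left out by that limit, had log2 fold changes of 1.05 for KO vs WT and 0.76 for WT+R vs WT and a rapamycin interaction of -0.62, each large enough to rank among the 4. For KO vs WT they were Nqo1 (described below), Sod3 (log2 fold change -0.96), Gsta4 (0.81) and Gstp1 (0.80). For KO+P vs KO they were Sod3 (-1.62), Srxn1 (1.60), Gclm (0.90) and Txnrd1 (0.69), and for WT+P vs WT Sod3 (-1.86), Srxn1 (1.44), Osgin1 (-0.97) and Gsta4 (-0.94). Without WT+P replicate 1 the Srxn1 value in WT was 0.14. It was called, at 2.12, when WT+P replicate 2 was left out, and so was Gclc, and Pgd in KO was called when KO+P replicate 3 was left out. For KO+R vs KO they were Sod3 (-1.59), Srxn1 (-0.76), Taldo1 (0.66) and Nqo1 (-0.60), and for WT+R vs WT Sod3 (-2.69), Srxn1 (-1.02), Gsta4 (-0.86) and Nqo1 (-0.69). Without KO replicate 3 the Nqo1 value turned to 0.15, and without the library labelled WT replicate 1 the Sod3 value for KO vs WT turned to 0.72, that for WT+P vs WT was -0.18 and that for WT+R vs WT was -1.01. Osgin1, an oxidative stress-induced growth inhibitor, stood at 74.2, 30.5 and 79.7 CPM in WT, 34.03 and 28.9 in WT+P and 61.0 and 23.9 in WT+R. In KO it stood at 53.7, 33.1 and 64.1 CPM untreated, 42.3, 24.0 and 61.2 with propranolol and 72.4, 42.3 and 81.1 with rapamycin, with replicate 2 the lowest in every group.

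Neither drug's effect was shown to differ between the genotypes for any of the 34 genes. The interaction of rapamycin with genotype and that of propranolol with genotype were called at an adjusted p under 0.05 for 0 of 34 genes with edgeR and for 0 with DESeq2, and 0 of the 34 had an unadjusted p under 0.05 with edgeR, against 0.762% and 0.721% of all genes. Of all genes, 0% were called in either interaction with edgeR, without and with the block, and with DESeq2 0.00368% for rapamycin and 0% for propranolol. The largest interaction values, within the same limit on level, were Sod3 (1.11), Osgin1 (0.91), Gsta4 (0.59) and Gstt1 (0.48) for rapamycin and Osgin1 (0.72), Gsta4 (0.44), Taldo1 (0.42) and Gstp1 (0.39) for propranolol, on the log2 scale. The same questions were then asked with more libraries, by averaging each drug's effect over both genotypes and the KO and WT difference over the 3 treatments. These 3 averaged contrasts were chosen after the values were seen, and they contain the libraries of the single comparisons. Their fits count each library as separate, although libraries of a genotype with the same replicate number may share a culture. The block removes what a replicate set shares over all groups, not what its KO or WT libraries share alone. The adjusted p-values of the averaged contrasts may therefore be too small.

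**Figure D2:**
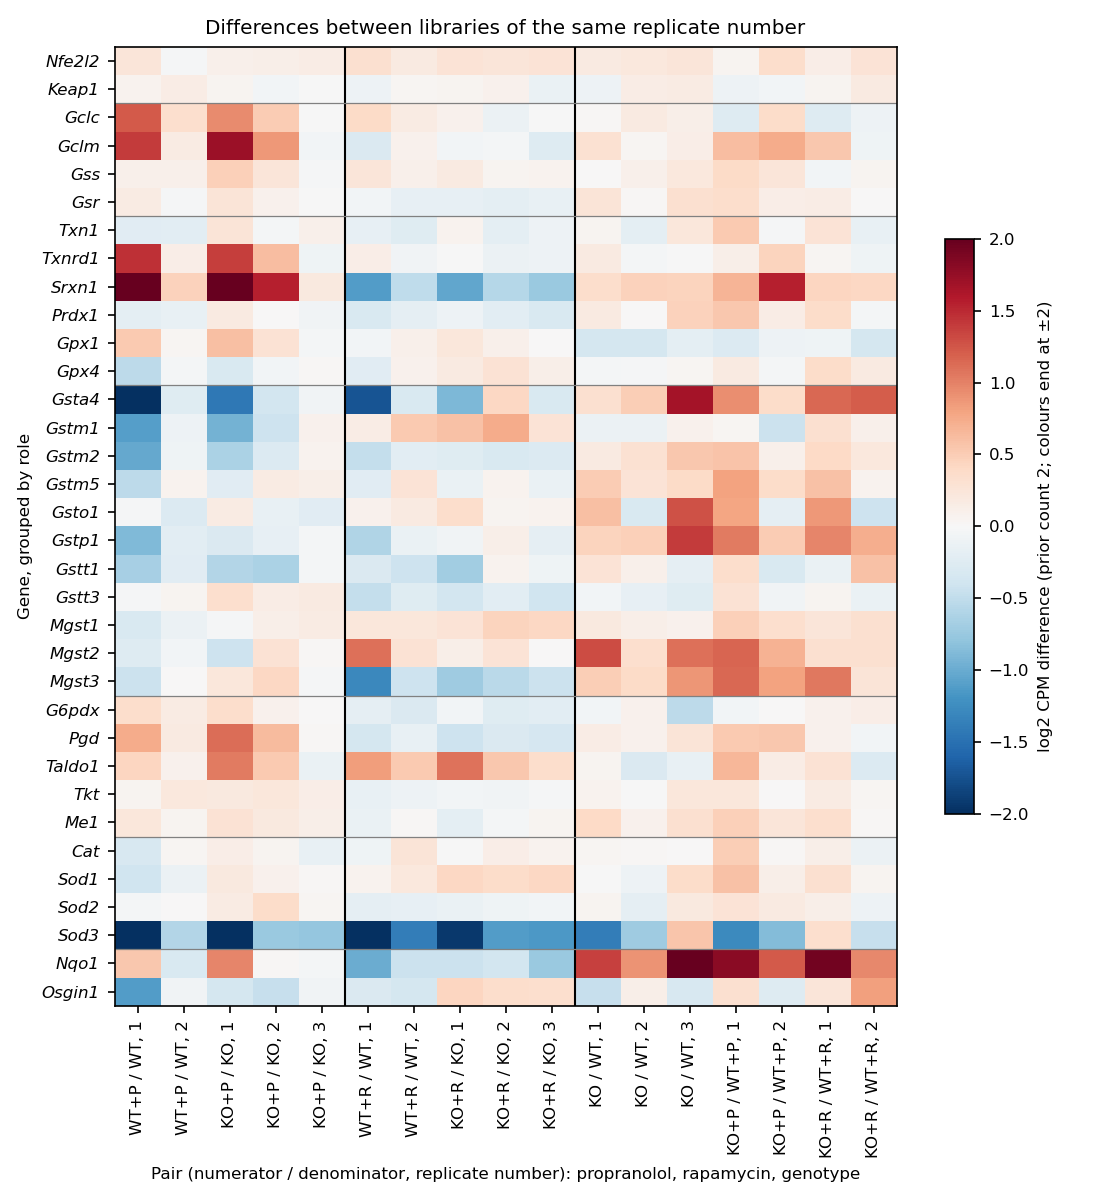
Difference in log2 CPM (prior count 2) of each of the 34 genes between 2 libraries of the same replicate number, with red for higher and blue for lower in the first named; the 5 propranolol pairs are at the left, the 5 rapamycin pairs in the middle and the 7 genotype pairs at the right. Srxn1 is red in the 5 propranolol pairs and blue in the 5 rapamycin pairs, and Nqo1 is red in the 7 genotype pairs.

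The pairs within a replicate set show the direction for every gene. A replicate set can give several pairs, so the pairs are not independent. For each factor a pair holds the library labelled WT replicate 1, and these counts were not repeated without it. Of the 34 genes, 13 (38.2%) differed in the same direction in all 7 KO and WT pairs, 12 of them higher in KO and Gpx1 lower, against 14.6% of all genes tested. The 12 were Nfe2l2, Gsr, Srxn1, Me1, Nqo1 and the transferases Gsta4, Gstm2, Gstm5, Gstp1, Mgst1, Mgst2 and Mgst3. For rapamycin, 20 of 34 (58.8%) moved in the same direction in all 5 pairs, 8 higher and 12 lower, against 41.4% of all genes. For propranolol, 10 of 34 (29.4%) did, 5 higher and 5 lower, a share near the 30% of all genes.

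The KO and WT difference was largest for Nqo1, the NAD(P)H quinone reductase that is a standard readout of NRF2. Nqo1 (GRCm39 chr8:108113835-108129934, minus strand) stood at 28.0, 33.2 and 32.4 CPM in WT, 40.5 and 27.0 in WT+P, and 14.1 and 24.7 in WT+R. In KO cells it stood at 72.5, 61.9 and 205 CPM untreated, 142, 63.2 and 199 with propranolol, and 53.9, 48.1 and 122 with rapamycin. Every KO library was thus higher than every WT library, and Nqo1 was the only 1 of the 34 genes (2.94%) without overlap between the 9 KO and 7 WT libraries, against 0.418% of all genes. Replicate 3 was the highest library of each KO group. It also had the highest summed fibroblast markers there, at 150.1 CPM against 12.0 and 26.5 in KO, 77.0 against 4.79 and 20.9 in KO+P and 202 against 6.62 and 15.6 in KO+R, and their part in the Nqo1 result was not tested. Within sets the fibroblast sum was lower in KO than in WT in 6 of 7 pairs. The astrocyte sum, largely Aldh1l1 and at most 7.75 CPM, was higher in KO in 7 of 7. The microglia and macrophage sum, at most 26.7 CPM, was higher in KO in 6 of 7, at 0.981 to 2.65 times the WT sum. The part of these sums in the Nqo1 result was not tested either. Averaged over the treatments, Nqo1 rose 3.82-fold in KO (log2 fold change 1.93 ± 0.34 SE, adjusted p = 0.0123, edgeR) and 2.92-fold with the replicate block (adjusted p = 0.00301). In untreated cells alone the mean was 113 ± 79.9 CPM in KO (SD, n = 3) and 31.2 ± 2.81 in WT (SD, n = 3), and the difference was not called with edgeR (1.86 ± 0.53, adjusted p = 0.483, and 0.0738 with the block). Without KO replicate 3 it was 1.11. Without the library WT+R replicate 1 the averaged difference was 1.82 with an adjusted p of 0.064. Without the library labelled WT replicate 1, in the fit with the block, it was 1.55 with an adjusted p of 0.0047.

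Glutathione transferases couple glutathione to electrophiles or reduce peroxides at membranes. They made up most of the other genes among the 34 that were higher in KO in all 7 pairs. Not every transferase was. Gstt3 was higher in KO in 2 of 7 pairs, and Gsto1, Gstm1 and Gstt1 each in 4 of 7. Mgst3, a microsomal transferase with peroxidase activity (chr1:167196550-167221687, minus strand), stood at 60.7, 56.0 and 39.6 CPM in WT and at 85.0, 73.4 and 73.3 CPM in KO. With propranolol it stood at 44.9 and 56.2 CPM in WT+P and 99.8, 97.9 and 71.9 in KO+P, and with rapamycin at 24.8 and 42.2 in WT+R and 51.7, 50.5 and 54.2 in KO+R. Within each treatment the KO libraries were above the WT libraries. Averaged over the treatments, Mgst3 rose 1.60-fold in KO (log2 fold change 0.68 ± 0.13 SE, adjusted p = 0.0174, edgeR, and 1.68-fold with the block, adjusted p = 0.00368). Leaving out WT+P replicate 1 or WT+R replicate 1 gave adjusted p-values of 0.0525 and 0.0575. Without the library labelled WT replicate 1, the blocked log2 fold change was 0.79 (adjusted p = 0.00342).

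Gstp1, the pi class transferase (chr19:4085405-4088068, minus strand), differed between replicate sets as well as between genotypes. It stood at 143, 67.8 and 86.3 CPM in WT and at 195, 94.5 and 228 CPM in KO, with replicate 2 the lowest in both. The KO library was 1.36-, 1.39- and 2.64-fold above the WT library of its own set. Averaged over the treatments, the log2 fold change was 1.02 ± 0.27 without the block (adjusted p = 0.0613, edgeR) and 0.84 ± 0.14 with it (adjusted p = 0.00392), so Gstp1 was called with the block and not without it. Leaving out the library labelled WT replicate 1, KO replicate 2 or KO+P replicate 2 also gave a call without the block (adjusted p from 0.0427 to 0.0439). Gstm5 reached an adjusted p of 0.0335 for a fold change of 1.34, below the 1.5-fold limit, at 17.6 ± 1.46 CPM in WT (SD, n = 3) and 23.1 ± 3.76 in KO (SD, n = 3). Gsta4, which conjugates the lipid peroxidation product 4-hydroxynonenal, stood at 20.5, 11.4 and 9.97 CPM in WT and 25.6, 16.1 and 31.9 CPM in KO, with an averaged log2 fold change of 1.16 ± 0.29 (adjusted p = 0.0564). In all, 2 of 34 genes (5.88%) were called in this averaged contrast, both higher in KO, against 1.76% of all genes. An unadjusted p under 0.05 was reached by 9 (26.5%), against 16.7% of all genes, and 3 of 34 (8.82%) were called with the block, against 4.47% of all genes. DESeq2 called 4, adding Gstp1 and Gsta4, against 3.58% of all genes, and 4 with the block, against 5.97%. The median log2 fold change over the 34 genes was 0.21, with 29 above 0, against -0.01 over all genes. Mgst1, Nfe2l2 and Me1, the cytosolic malic enzyme, passed the adjusted p with the block (0.00446, 0.0294 and 0.0338) at fold changes of 1.21, 1.16 and 1.21, below the limit.

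**Figure D3:**
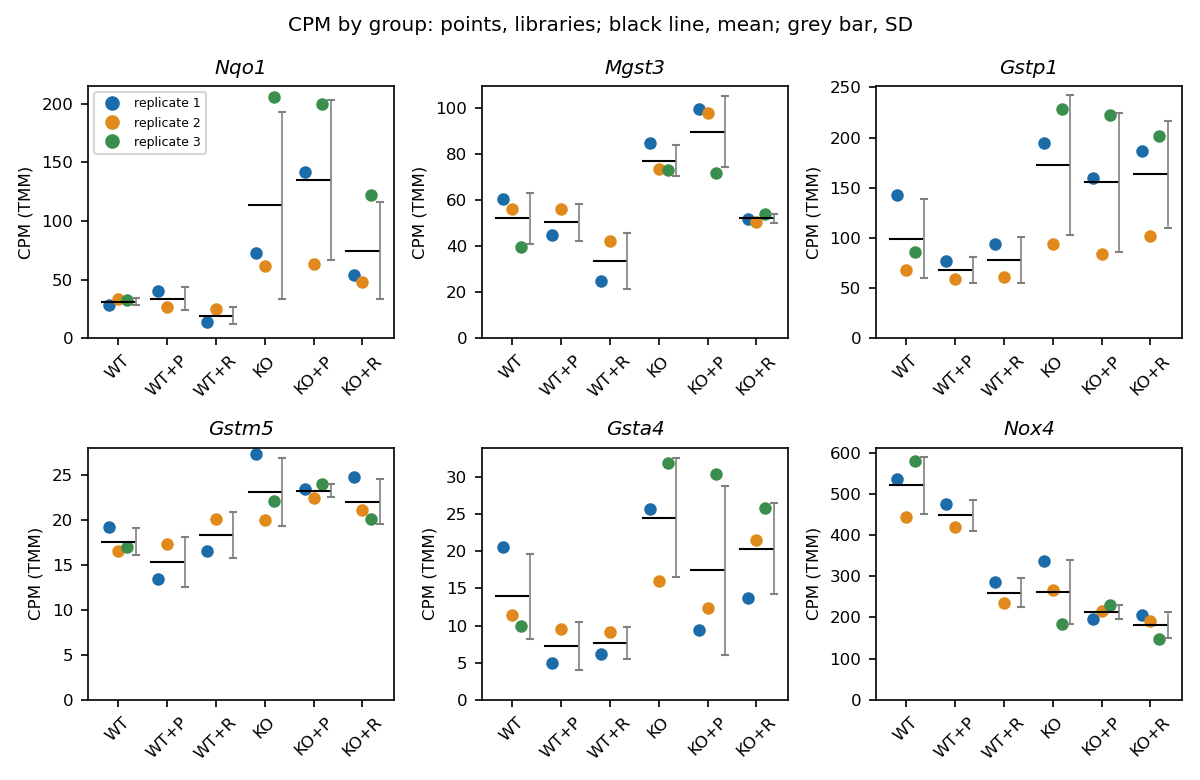
CPM of 5 of the 34 genes and of Nox4 in the 6 groups, with 1 point per library coloured by replicate number, a black line at the mean and a grey bar of 1 SD. All KO libraries lie above all WT libraries for Nqo1 (lowest KO 48.1, highest WT 40.5 CPM), while Gstp1 and Gsta4 overlap between genotypes.

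With propranolol, the 5 genes Srxn1, Gclm, Gclc, Txnrd1 and Pgd had higher levels than the untreated library in replicate set 1 and, in KO cells, in set 2, and lay closer to the untreated level in the other sets. In the averaged contrast edgeR called none of the 5 without the block, and Srxn1 and Gclc with it. Srxn1, the sulfiredoxin that repairs overoxidised peroxiredoxins (chr2:151947436-151957687, plus strand), stood at 117, 101 and 160.0 CPM in WT and at 546 and 139 CPM in WT+P. In KO cells it stood at 149, 139 and 218 CPM untreated and at 877, 410.1 and 248 CPM with propranolol. Within sets, propranolol libraries were 4.67- and 1.38-fold above the untreated ones in WT and 5.90-, 2.95- and 1.14-fold in KO, higher in 5 of 5 pairs. Averaged over the genotypes, Srxn1 was 2.88-fold higher (log2 fold change 1.52 ± 0.37 SE), which missed the threshold without the block (adjusted p = 0.0536, edgeR) and passed it with the block (2.81-fold, adjusted p = 0.0439). Without the block it passed when WT+P replicate 2 or KO+P replicate 3, the libraries nearest to their untreated partners, was left out (adjusted p = 0.00551 and 0.0134). Without WT+P replicate 1 the log2 fold change was 0.87 (adjusted p = 0.457). The fit with the block lost the call once the library labelled WT replicate 1 was removed (log2 fold change 1.38, adjusted p = 0.127).

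Both subunits of glutamate-cysteine ligase, the rate-limiting enzyme of glutathione synthesis, followed the same sets. Gclm, the modifier subunit (chr3:122039126-122065061, plus strand), stood at 92.1, 108 and 157 CPM in WT, 242 and 121 in WT+P, 113, 111 and 172 in KO, and 372, 202 and 166 in KO+P. Gclc, the catalytic subunit (chr9:77661797-77701770, plus strand), stood at 36.4, 34.9 and 47.5 CPM in WT, 85.4 and 43.9 in WT+P, 37.0, 39.6 and 51.6 in KO, and 71.6, 56.5 and 51.2 in KO+P. In replicate 3 of KO cells, propranolol left Gclm at 0.965 and Gclc at 0.992 of the untreated level. Averaged over the genotypes, Gclc rose 1.55-fold with the block (log2 fold change 0.63 ± 0.15 SE, adjusted p = 0.0395, edgeR), against 1.51-fold and an adjusted p of 0.0911 without it. Without the block Gclc was also called when WT+P replicate 2 or KO+P replicate 3 was left out (adjusted p = 0.00978 and 0.0496), while without WT+P replicate 1 its log2 fold change was 0.32 (adjusted p = 0.558). With the block it was not called without the library labelled WT replicate 1 (adjusted p = 0.121). Gclm had a log2 fold change of 0.76 ± 0.25 and an adjusted p of 0.118 (0.0686 with the block).

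Txnrd1, cytosolic thioredoxin reductase, whose promoter match is shown above, stood at 129, 165 and 205 CPM in WT and at 355 and 182 in WT+P. In KO it stood at 146, 161 and 204 CPM untreated and at 383, 248 and 193 with propranolol. Its averaged log2 fold change was 0.69 ± 0.21 (adjusted p = 0.0943, and 0.0621 with the block). Pgd, the 6-phosphogluconate dehydrogenase that makes NADPH, stood at 155, 156 and 167 CPM in WT, 258 and 176 in WT+P, 171, 165 and 199 in KO, and 370.1, 255 and 203 in KO+P. It was higher in 5 of 5 pairs, at a 1.45-fold averaged change (adjusted p = 0.0764, and 0.0527 with the block). G6pdx, Tkt and Me1 were also higher in 5 of 5 pairs, by at most 1.27-fold, while Gsta4, Gstp1, Gstt1, Sod3 and Osgin1 were lower in 5 of 5. In the averaged propranolol contrast, 0 of 34 genes were called with edgeR, against 1.58% of all genes, with 8 (23.5%) at an unadjusted p under 0.05, against 22.1% of all genes, and 2 of 34 (5.88%, Srxn1 and Gclc) with the block, against 4.19% of all genes. DESeq2 called 5 genes, Srxn1, Gclm, Gclc and Txnrd1 as higher and Sod3 as lower, against 6.26% of all genes, and 5 with the block, against 9.37%. The median log2 fold change over the 34 was 0.08, against -0.004 over all genes. No gene of the 34 was without overlap between the 5 propranolol and 6 untreated libraries, against 2.82% of all genes.

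Other measures also differed between the same propranolol libraries. The summed endothelial markers ranged from 9031 to 13345 CPM in WT+P and from 9795 to 14096 CPM in KO+P, against 13885 to 17888 CPM in WT and 14137 to 16029 CPM in KO. Kdr, the VEGF receptor, stood at 53.2 and 197 CPM in WT+P and 59.2, 83.4 and 300 CPM in KO+P, against 220 to 362 CPM in WT and 276 to 384 CPM in KO, and the 3 libraries with the most Srxn1 were the 3 with the least Kdr. Kdr is only 1 of the 12 endothelial markers, and not all fell in each pair. Egfl7 stood at 1129 CPM in KO+P replicate 1 against 1098 CPM in KO replicate 1. Erg stood at 586 CPM in WT+P replicate 2 against 553 CPM in WT replicate 2. The sum of the 12 was lower in 5 of 5 pairs, at 0.549 to 0.961 of the untreated sum. The summed neuronal markers, of which only Stmn2 reached 1 CPM, were lower in 5 of 5 propranolol pairs, at 0.442 to 0.932 of the untreated sum. The part of these differences in the propranolol results was not tested.

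**Figure D4:**
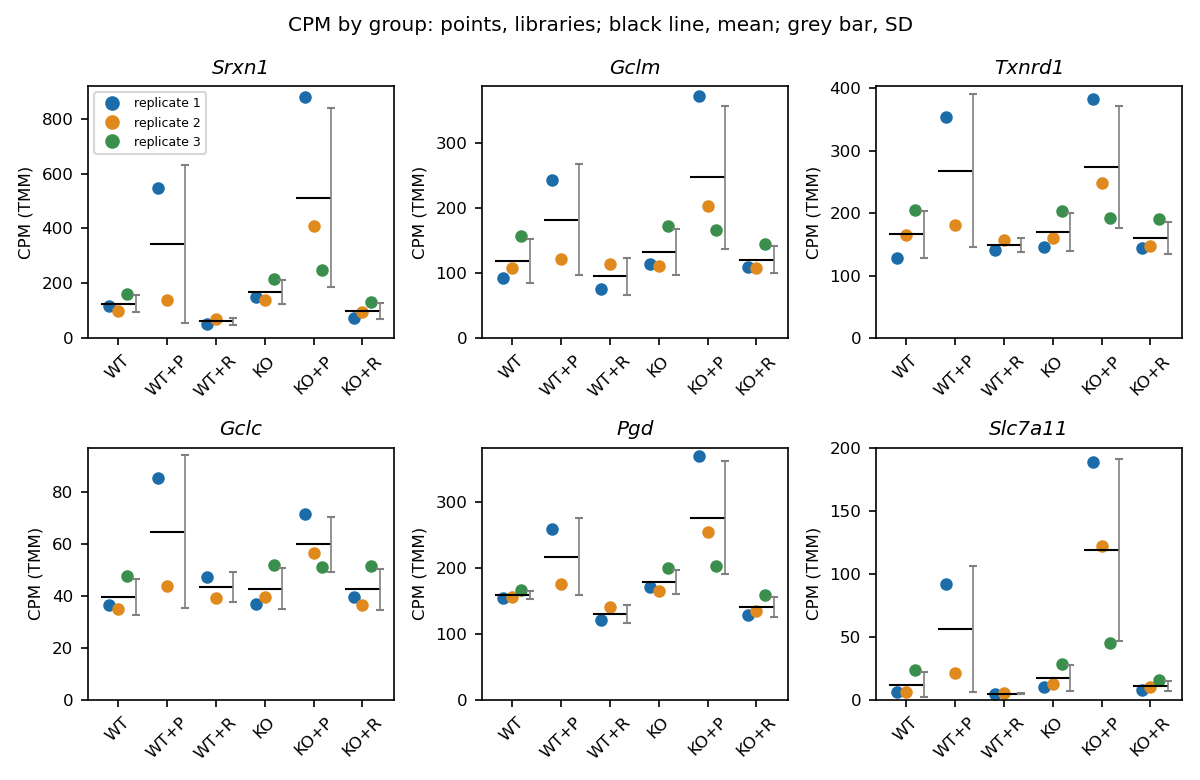
CPM of Srxn1, Gclm, Txnrd1, Gclc and Pgd and of the cystine transporter gene Slc7a11 in the 6 groups, with 1 point per library coloured by replicate number, a black line at the mean and a grey bar of 1 SD. In WT+P and KO+P, replicate 1 is the highest library for each gene, and KO+P replicate 3 lies near untreated KO replicate 3 for Gclm, Txnrd1, Gclc and Pgd.

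With rapamycin, the 34 genes moved in different directions. Taldo1, which links the pentose phosphate pathway to glycolysis (chr7:140972053-140982886, plus strand), stood at 434, 537 and 678 CPM in WT, 779 and 775 in WT+R, 449.9, 440.3 and 611 in KO, and 955, 642 and 780.3 in KO+R. It was higher in 5 of 5 pairs, by 1.28- to 2.12-fold. Averaged over the genotypes its log2 fold change was 0.58 ± 0.17 SE with an adjusted p of 0.0488, just under the fold limit, and with the block it was called at 0.60 ± 0.16 (adjusted p = 0.0249, edgeR). Taldo1 was further called without the block when WT replicate 3, KO replicate 3 or KO+R replicate 2 was left out, and with the block it was lost once the library labelled WT replicate 1 was removed (0.49, adjusted p = 0.0626). Mgst3, whose values are given above, was lower with rapamycin in 5 of 5 pairs, to between 0.409 and 0.753 of the untreated level. Averaged over the genotypes it fell by 0.60 ± 0.16 in log2 terms (adjusted p = 0.0319, and 0.00895 with the block). Leaving out 1 library ended this call without the block in 9 of 11 cases, with adjusted p-values from 0.0533 to 0.17, those 9 being every WT, WT+R, KO and KO+R library but WT replicate 3 and WT+R replicate 2. In the blocked fit that omitted the library labelled WT replicate 1, Mgst3 had a log2 fold change of -0.56 (adjusted p = 0.0264), below the fold limit.

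Sod3 (chr5:52521070-52528883, plus strand) stood at 33.3, 4.60 and 4.10 CPM in WT, 2.60 and 1.72 in WT+R, 12.7, 2.77 and 6.04 in KO, and 3.28, 1.23 and 2.67 in KO+R. The highest value was that of the library labelled WT replicate 1. Sod3 fell by 2.14 ± 0.61 in log2 terms (adjusted p = 0.0488, edgeR, and by 1.89 with an adjusted p of 0.0145 with the block). In 8 of 11 cases leaving out 1 library ended the call without the block (adjusted p from 0.0713 to 0.162), the exceptions being WT replicate 2, WT replicate 3 and KO replicate 2. Without the library labelled WT replicate 1 the change was -1.29 (adjusted p = 0.0939), and -1.37 with the block (adjusted p = 0.0188). Sod3 was also lower with propranolol in 5 of 5 pairs, at 4.67 and 3.04 CPM in WT+P and 1.87, 1.63 and 3.51 CPM in KO+P, with a log2 fold change of -1.74 ± 0.60 (adjusted p = 0.12). Srxn1 was lower with rapamycin than in the untreated library of its set in 5 of 5 pairs, at 53.7 and 70.6 CPM in WT+R and 72.6, 94.1 and 131 CPM in KO+R, or 0.459 to 0.702 of the untreated level. Its averaged log2 fold change of -0.89 ± 0.37 was not called (adjusted p = 0.177, and 0.145 with the block).

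Marker sums moved with rapamycin as well. Within sets, the summed microglia and macrophage markers were lower in 5 of 5 rapamycin pairs, at 0.352 to 0.442 of the untreated sum. The astrocyte markers were lower in 5 of 5, while the neuronal markers were higher in 5 of 5, by 1.48- to 2.10-fold. These sums rested largely on single genes, Cd68 (up to 25.6 CPM), Aldh1l1 (up to 7.25 CPM) and Stmn2 (up to 89.5 CPM). Aldh1l1 is also on the list for NADPH supply below, so its fall there is not a separate result. The sums with rapamycin were at most 10.2 CPM for microglia and macrophages and 90.1 CPM for neurons, and their part in the rapamycin results was not tested.

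Smaller differences were measured more closely within sets. With the block and rapamycin, Mgst1 was 1.23-fold higher (adjusted p = 0.00336), Nfe2l2 1.20-fold higher (adjusted p = 0.0119), Sod1 1.25-fold higher (adjusted p = 0.0284) and Gstt3 at 0.777 of the untreated level (adjusted p = 0.0146), all below the 1.5-fold limit. In the averaged rapamycin contrast 2 of 34 genes (5.88%) were called, both lower, against 5.29% of all genes, and with the block 3 of 34 (8.82%), against 9.81% of all genes, so the share of the 34 was near that of all genes. DESeq2 called 3, against 6.75% of all genes, and 3 with the block, against 10.4%. The median log2 fold change over the 34 was -0.08, against -0.02 over all genes. No gene of the 34 was without overlap between the 5 rapamycin and 6 untreated libraries, against 8.3% of all genes.

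The mRNA of the transcription factor differed by less than the 1.5-fold limit in every averaged contrast. Nfe2l2 stood at 196, 148 and 181 CPM in WT, 231 and 145 in WT+P, 246 and 167 in WT+R, 222, 171 and 215 in KO, 239, 186 and 237 in KO+P, and 268.5, 203 and 260.5 in KO+R. Replicate 2 was the lowest library of every group, and the groups overlapped. Keap1 lay between 73.3 and 93.5 CPM over all 16 libraries, the smallest ratio of highest to lowest among the 34 genes (1.28-fold).

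The other genes were not called in any edgeR comparison above and are given by their range over the 16 libraries. Of the glutathione genes, Gss (glutathione synthetase) lay between 27.1 and 39.1 CPM and Gsr (glutathione reductase) between 62.6 and 93.5 CPM. Txn1 (thioredoxin) lay between 153 and 254 CPM, Prdx1 (peroxiredoxin 1) between 355 and 563, Gpx1 (cytosolic glutathione peroxidase) between 184 and 336, and Gpx4 between 499.9 and 807 CPM. Gpx1 was lower in KO in 7 of 7 pairs, the one gene of the 34 with that direction. The transferases spanned wide levels, with Gsto1 between 76.4 and 267 CPM, Gstm1 between 57.7 and 231, Gstm2 between 25.1 and 57.9, Mgst1 between 83.8 and 184, Gstt3 between 11.3 and 19.3, Gstt1 between 1.16 and 3.49 and Mgst2 between 0.139 and 0.723 CPM. Of the NADPH enzymes, G6pdx (glucose-6-phosphate dehydrogenase) lay between 39.0 and 96.4 CPM, Tkt (transketolase) between 169 and 238 and Me1 between 80.9 and 176 CPM. Cat (catalase) lay between 75.2 and 117 CPM, Sod1 between 179 and 335 and Sod2, the mitochondrial dismutase, between 53.8 and 75.9 CPM.

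**Figure D5:**
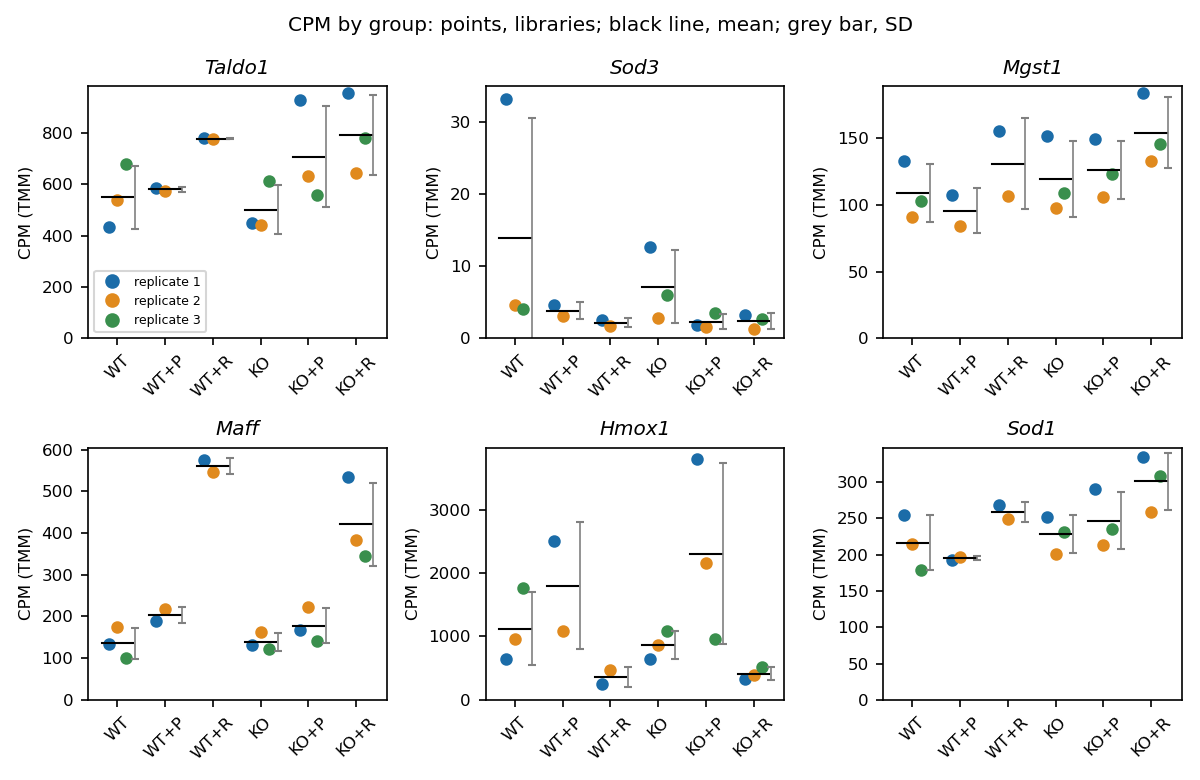
CPM of Taldo1, Sod3, Mgst1 and Sod1 and of Maff and Hmox1 in the 6 groups, with 1 point per library coloured by replicate number, a black line at the mean and a grey bar of 1 SD (for Sod3 in WT it runs below 0). Maff lies at 345 to 575 CPM with rapamycin and under 224 CPM in all other libraries.

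Other genes of the system were taken from 6 lists of 96 genes, of which 86 were tested. These lists were also chosen with earlier results known, so their shares against all genes are descriptions too. In untreated KO vs WT, in KO+P vs KO and in WT+P vs WT, 0 of the 86 were called with edgeR, and with the block 1 (Xdh, xanthine dehydrogenase, higher in KO), 0 and 0. With rapamycin, 3 rose and 1 fell in KO (4.65%, against 1.51% of all genes) and 2 rose and 1 fell in WT (3.49%, against 1.4%). The small MAF partners of NRF2 led these. Maff stood at 134, 173 and 99.4 CPM in WT, 575 and 546 in WT+R, 131, 163 and 121 in KO, and 534, 384 and 345 in KO+R. It rose 4.13-fold in WT (adjusted p = 0.00331) and 3.05-fold in KO (adjusted p = 0.00628), and no single library ended either call. Mafk rose 1.67-fold in WT (adjusted p = 0.0194) and 1.54-fold in KO (adjusted p = 0.0267), calls that ended on leaving out any library but WT replicate 2 in WT, and any but KO replicate 2 and KO+R replicate 3 in KO. Oplah, the 5-oxoprolinase of the glutathione cycle, rose 1.85-fold in KO (adjusted p = 0.0256), and leaving out any of its 6 libraries ended that call. Duox2, a hydrogen peroxide-producing oxidase, had 0 to 2 counts in the 5 rapamycin libraries and 37 to 138 counts in the 6 untreated ones, and its call in WT ended without either WT+R library. With the block Gpx3, Gsta3 and Akr1b8 also fell in KO, Oplah and Bach1 rose in WT, and Akr1b8 and Nox4 fell in WT, or 7 of 86 (8.14%) in each genotype, against 4.98% and 4.56% of all genes. Of these, Bach1 (adjusted p = 0.12) and Akr1b8 (0.0549) in WT and Gsta3 (0.0521) in KO were not called with the block once the library labelled WT replicate 1 was removed. Tested genes of the lists numbered 10 NRF2 partners and controls, 17 other NRF2 targets, 20 for glutathione use and breakdown, 18 for thioredoxin, peroxiredoxin and methionine sulfoxide, 15 for NADPH supply and 6 sources of superoxide and hydrogen peroxide.

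Averaged over the genotypes, 6 of the 86 (6.98%) rose with propranolol and 0 fell, against 1.58% of all genes. They were Chac1, which degrades glutathione and is a target of the amino acid response factor ATF4 (14.1-fold, adjusted p = 0.00341), the mitochondrial folate and NADPH enzymes Aldh1l2 (14.4-fold, adjusted p = 0.0202) and Mthfd2 (8.47-fold, adjusted p = 0.0121), Slc7a11, the cystine transporter (5.69-fold, adjusted p = 0.037), Sqstm1 (2.52-fold, adjusted p = 0.0483) and Mafg (1.81-fold, adjusted p = 0.0362). Chac1 stood at 574 and 112 CPM in WT+P and 670.2, 485 and 142 CPM in KO+P, against 16.8 to 51.2 CPM in untreated libraries, and it was the only 1 of the 6 called whichever library was left out. The call of Mthfd2 ended without WT+P replicate 1 or KO replicate 3. Those of the others ended in 7 (Aldh1l2), 8 (Slc7a11), 9 (Sqstm1) and 9 (Mafg) of 11 cases, among them WT replicate 1, WT+P replicate 1, KO+P replicate 1 and KO+P replicate 2 for each of these 4 genes. By list, 2 of the 10 partners and controls, 1 of the 17 other targets, 1 of the 20 for glutathione use, 2 of the 15 for NADPH supply, 0 of the 18 for thioredoxin and 0 of the 6 sources were called, with list medians from -0.27 (sources) to 0.25 (partners and controls) on the log2 scale. Slc7a11 stood at 91.9 and 21.0 CPM in WT+P and 189, 122 and 45.02 CPM in KO+P, against 5.90 to 28.9 CPM untreated. Replicate 1 was the highest propranolol library of both Chac1 and Slc7a11, as it was of Srxn1. Hmox1, heme oxygenase 1 and a further NRF2 target, was at 2512 and 1093 CPM in WT+P and 3804, 2156 and 965 CPM in KO+P, a difference that was not called (1.05 ± 0.37, adjusted p = 0.128). With the block Idh1 and Hagh also rose, and Aox1 and Txnip, the thioredoxin-interacting protein gene (log2 fold change -1.52, adjusted p = 0.0496), fell, so that 10 of 86 (11.6%) were called, against 4.19% of all genes. Once the library labelled WT replicate 1 was removed from that fit, 2 of the 10 were called, Chac1 and Idh1. The other 8 had adjusted p-values from 0.0622 (Hagh) to 0.12 (Txnip), with Mthfd2 at 0.0698, Aldh1l2 at 0.074, Mafg at 0.0901, Slc7a11 at 0.0958 and Sqstm1 at 0.118.

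Averaged over the genotypes, 4 of the 86 rose with rapamycin (Maff, Mafk, Oplah and Bach1, the repressor that competes with NRF2) and 6 fell, 11.6% in all against 5.29% of all genes. Hmox1 fell by 1.35 ± 0.39 in log2 terms (adjusted p = 0.0489), at 251 and 472 CPM in WT+R and 324, 394 and 520.1 CPM in KO+R, against 639 to 1768 CPM in untreated libraries, although leaving out any library but WT replicate 1 ended that call. Nox4, a hydrogen peroxide-producing NADPH oxidase, fell by 0.77 ± 0.15 (adjusted p = 0.00859), and Akr1b8, Chac2, Sesn3 and Duox2 were the others. The calls of Maff, Mafk, Oplah, Nox4 and Duox2 held whichever library was left out, that of Akr1b8 ended without WT+R replicate 1, and those of Bach1, Chac2 and Sesn3 ended in 4, 7 and 9 of 11 cases, WT+R replicate 1 among them each time. By list, 3 of the 10 partners and controls rose, and 2 of the 17 other targets and 2 of the 6 sources fell, with list medians of 0.19, -0.19 and -0.52. With the block 5 of the 86 rose and 10 fell, the added genes being Xdh (higher) and Gpx3, Gsta3, Aldh1l1 and Anpep (lower), or 17.4%, against 9.81% of all genes. Sesn3 (adjusted p = 0.0542) and Anpep (0.0852) were not called there once the library labelled WT replicate 1 was removed.

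In KO averaged over the treatments 5 rose and 1 fell, 6.98% of the 86 against 1.76% of all genes. Nox4 fell by 0.86 ± 0.12 (adjusted p = 0.00517), from 235 to 581 CPM in WT libraries to 147 to 338 CPM in KO libraries, ranges that overlapped. The genes that rose were Xdh (5.16-fold, adjusted p = 0.00517), the glutathione-degrading peptidases Anpep (4.92-fold, adjusted p = 0.00669) and Ggt1 (3.43-fold, adjusted p = 0.0111), Gstk1 (1.73-fold, adjusted p = 0.0154) and Fth1, ferritin heavy chain (1.57-fold, adjusted p = 0.0441). The calls of Anpep, Xdh and Nox4 held whichever library was left out, that of Fth1 was lost on leaving out any library but KO replicate 2 and KO+P replicate 2, and those of Ggt1 and Gstk1 were lost without WT+R replicate 1. Anpep, Ggt1 and Xdh were also highest in replicate 3 of each KO group, the libraries with the highest fibroblast sums. Leaving out a single library keeps the other libraries of its replicate set. Whether these calls rest on that set was not tested. With the block 8 rose and 1 fell (10.5%, against 4.47% of all genes). Gsta1, Gsta3, Blvrb and Aldh1l1 were added, and Fth1 was not called. Blvrb (adjusted p = 0.0709) was the 1 of these 9 not called once the library labelled WT replicate 1 was removed. The list of other NRF2 targets had a median log2 fold change of 0.42 over its 17 tested genes, against -0.01 over all genes, with 1 called.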

How the data were processed

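The authors deposited, for each of 16 libraries, a Salmon table (version 1.5.2 per the labels) with an expected count and a TPM value for every transcript. The deposited expected counts were not normalized between libraries, and the authors' TPM values are scaled for effective length and depth. The labels name GRCm39, and the transcript index is not given in the sources used here. Of 140789 transcripts, 139544 (99.12%) matched the GENCODE M39 annotation. Unmatched transcripts held 0.39 to 0.57% of counts and were left out. Counts were summed by gene and rounded, and 0 columns of per-sample values were left unused.

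One edgeR 4.0.16 quasi-likelihood model (R 4.3.3, TMM factors 0.934 to 1.041, filterByExpr) held all 6 groups, with Benjamini-Hochberg adjustment over 14838 genes. Calls needed an adjusted p under 0.05 together with a fold change over 1.5, except interactions, which needed the adjusted p. Levels are TMM-scaled CPM, and pairs were compared in log2 CPM with a prior count of 2. Alternatives were the replicate number as a block, DESeq2 1.42.0, RLE factors, no filter, only the groups compared, an effective length offset and leaving out each library. No whole replicate set was left out, so a call that held without any single library can still rest on a set. The averaged contrasts, DESeq2 with the block, and the block omitting the library labelled WT replicate 1 were chosen after the values were seen. The model script was tested on simulated data.

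Pairing by replicate number was checked from the values, since neither labels nor methods state it. Deviations of same-numbered libraries from their group means had correlations between 0.19 and 0.62 (KO, WT), between 0.31 and 0.58 (KO+P, KO), between 0.41 and 0.62 (KO+R, KO), between 0.49 and 0.56 (WT+P, WT, 2 pairs) and between 0.60 and 0.69 (WT+R, WT, 2 pairs). Over all groups, same-numbered pairs of libraries had a median correlation of 0.52 (0.03 to 0.69, 36 pairs). Differently numbered pairs had a median of -0.23 (-0.69 to 0.40, 70 pairs), and the 2 ranges overlapped. The numbers were taken to pair libraries on this basis. The study describes replicates of a group as separate cell cultures. The biological coefficient of variation, 32.3% (19% with the block), set the precision.

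The 34 genes and the other lists were chosen with earlier results of these data known, and no test over a list was run. Genes named among the 34 were those called with edgeR, blocked or not, and the 4 with the largest change in each single comparison or interaction, leaving out genes that averaged under 1 CPM. Genes of other lists were named where called. Hmox1 and Pgd with propranolol, Gstm5 in KO, and Gstt3, Sod1, Mgst1, Nfe2l2 and Me1 with the block were named after their values were seen. Proteins were not analysed here.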

Additional observations from a re-analysis of the deposited data

How the results depend on the processing

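Over 36 single-gene values, 582 of 591 alternative values kept their direction and 9 reversed. Without the library labelled WT replicate 1, the log2 fold change of Sod3 for KO vs WT was 0.716 (-1.666 to 0.716 over all libraries left out) and its rapamycin by genotype interaction was -0.56 (-0.56 to 1.814). Without it and with the replicate block these were 0.295 and -0.262, the Gsta4 interactions were -0.465 (propranolol) and -0.243 (rapamycin), and the Gstp1 propranolol interaction was -0.067. The Gsta4 propranolol interaction ranged from -0.227 (without KO+P replicate 3) to 0.998, and Nqo1 for KO+R vs KO from -1.136 to 0.152 (without KO replicate 3), when libraries were left out.

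The replicate block, which uses the pairing, changed the number of the 34 genes called for propranolol over the genotypes from 0 to 2 and for KO vs WT over the treatments and rapamycin over the genotypes from 2 to 3. For KO vs WT, DESeq2 called 1 gene, and 2 with the block. The numbers were 1 and 3 for propranolol in KO, 0 and 1 for rapamycin in KO, 0 and 0 for propranolol in WT, and 1 and 2 for rapamycin in WT. For the averaged contrasts DESeq2 called 4 (genotype), 5 (propranolol) and 3 (rapamycin), without and with the block. With no filter these were 4, 1 and 3, with an effective length offset 3, 0 and 1, and with the block and no library labelled WT replicate 1 they were 4, 0 and 1. Leaving out single libraries gave 0 to 1 genes for KO+P vs KO (1 without KO+P replicate 3), 0 to 2 for WT+P vs WT (2 without WT+P replicate 2), 0 to 4 for KO vs WT over the treatments (0 without WT+R replicate 1), 0 to 6 for propranolol over the genotypes (6 without KO+P replicate 3) and 0 to 3 for rapamycin over the genotypes. For no filter, the offset, the block without the library labelled WT replicate 1 and single libraries left out, shares of all genes are not given here. Those counts show how calls moved with the setting and are not set against all genes. The causes were not tested. DESeq2 gave no adjusted p for 1 of the 34 genes in KO vs WT. Leaving out a WT+P or WT+R library leaves 1 library there, which is assumed to vary like the other groups.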
